A study of Mus musculus with 2 samples.

Results

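The 10 genes described here encode inhibitors that extracellular signal-regulated kinase (ERK) signalling switches on or acts through: the dual-specificity MAPK phosphatases Dusp1, Dusp4, Dusp5, Dusp6 and Dusp7, the Sprouty genes Spry1, Spry2 and Spry4, and the Spred genes Spred1 and Spred2. Every probe set annotated to exactly 1 gene symbol among these was taken, which gave 27 of 45037 probe sets, for 10 of 18193 genes. They were measured in Neuro2a cells, a mouse neuroblastoma line, after transfection with an siRNA against Tmem132a (also named mKIAA1583), a gene of a family of single-pass membrane proteins, or with a non-specific control siRNA. Total RNA of each group was hybridised to 1 Affymetrix Mouse Genome 430 2.0 array, so no value carries a replicate error and the groups could not be tested against each other. The number of siRNA sequences used and the time after transfection are not given in the sources used here.

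ERK is the last kinase of a cascade in which growth factor receptors activate RAS, RAF and MEK in turn. MAPK phosphatases remove the activating phosphates from ERK and related kinases, while Sprouty and Spred proteins act higher up, between the receptor and RAF. Many of these inhibitors are transcribed in response to ERK activity, so that their mRNAs form a negative feedback and are often read as a record of signalling through the cascade. In cells of neural crest origin, such as those of neuroblastoma, the cascade carries signals from neurotrophin, RET and ALK receptors.

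Values are MAS5 signals, a linear measure of hybridisation that summarises the oligonucleotide pairs of a probe set. Differences are given as log2 ratios, Tmem132a siRNA over control siRNA, and the size at which a gene counts as higher or lower is 1.5-fold (a log2 ratio of 0.58). Each gene is summarised by averaging its probe sets whose mean signal reached 77.25, the median of all probe sets, and 22 of the 27 did so. Signals of different probe sets are not compared with each other, since each has its own binding strength. Over 5072 genes with several probe sets past this filter, log2 ratios varied around their gene's mean with an SD of 0.39. This SD is the spread between probe sets of a gene, pooled over all brightnesses. It is not a pure measure of technical error, and it leaves out variation between cultures.

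The target of the siRNA was lower on the array that carries its name: Tmem132a, read by 1416845_at, had a signal of 435.6 with the Tmem132a siRNA and 1825.5 with the control siRNA, or 23.9% of the control level. The free-text description of that sample repeats the control's wording, so groups were taken from the titles. The trimmed mean signal was 500.003 on each array, and 10678 genes had a value. Of 14 sympathetic neuroblast markers with a probe set, 12 passed the filter, among them the transcription factor genes Phox2a, Hand2 and Gata3 and dopamine beta-hydroxylase (Dbh), while the neurofilament genes Nefl and Nefm did not. All 12 had ratios below 0, from -0.51 to -0.03, where 5143 of all 10678 genes did. Of the 12, 0 were 1.5-fold lower, and their part in the results below was not tested. None of 10 fibroblast markers passed the filter, and of the glial, immune, and epithelial or endothelial markers 1 of 8, 1 of 9 and 1 of 10 did. No marker was listed at 0, and the summed signal with the Tmem132a siRNA and with the control siRNA was 369 and 541.4 for the fibroblast list, 897.9 and 703 for glia, 638.7 and 407 for immune cells, and 440.7 and 296.5 for epithelium and endothelium.

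Of the 10 genes, 1 was at least 1.5-fold higher with the Tmem132a siRNA, Spred1, and 0 were at least 1.5-fold lower. Across all 10678 genes 8.83% were higher by that size and 9.1% lower, so the count is near the background. The median log2 ratio of the 10 genes was 0.01, against 0.02 over all genes, with 5 genes above 0 and 5 below. The genes did not move as a block: Spred1, Dusp1 and Dusp5 had the highest ratios, while Spry2, Spred2 and Dusp4 had the lowest. In RNA of a whole culture, a different share of cells making a transcript and a different amount per cell cannot be told apart.

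**Figure D1:**
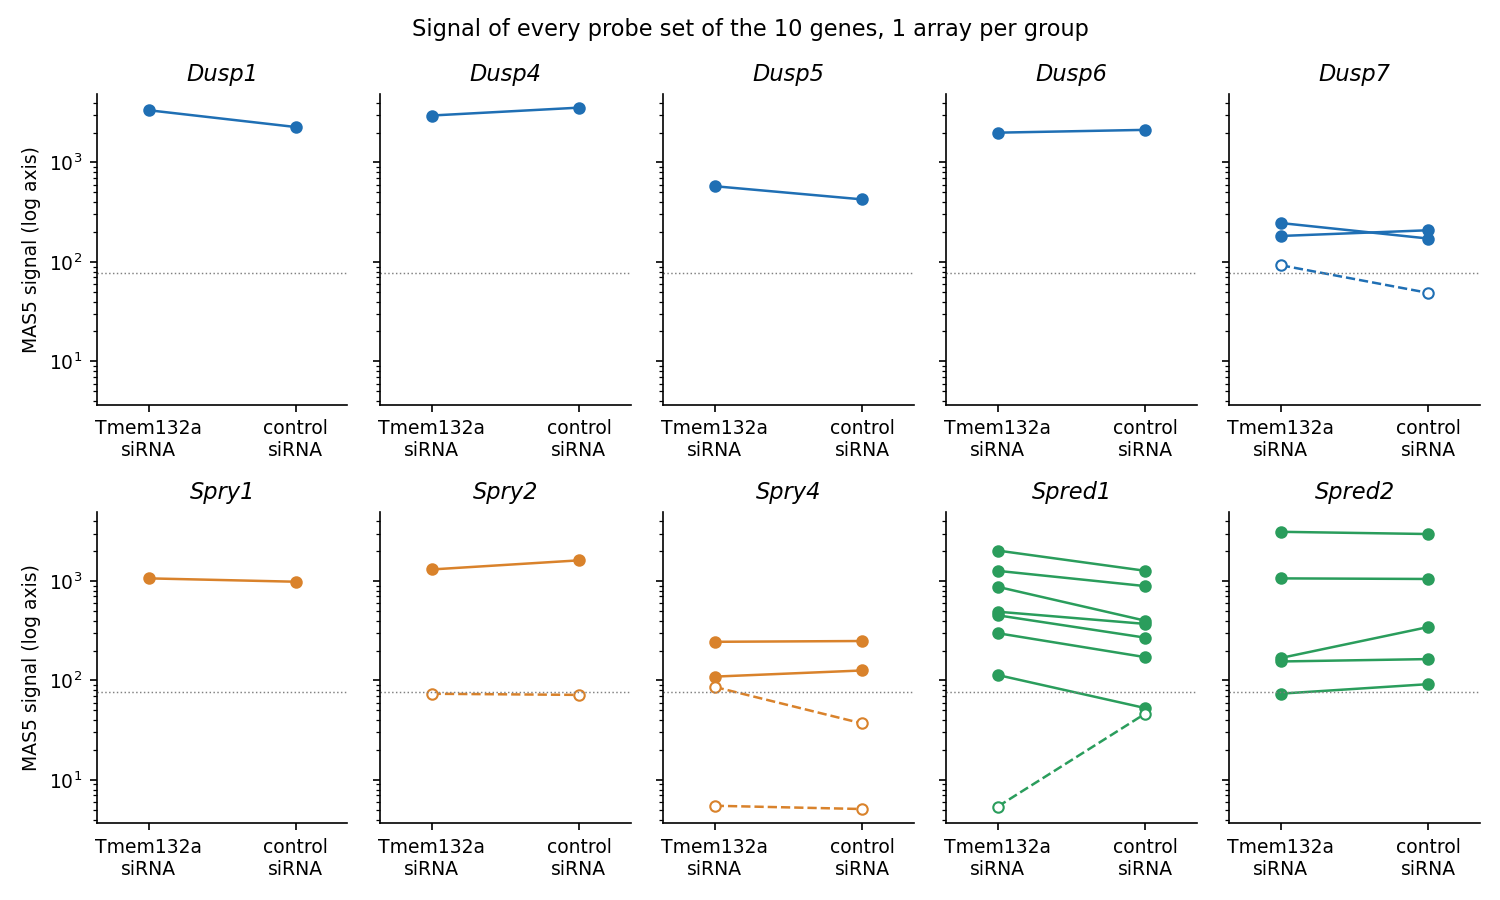
MAS5 signal (log axis) of each of the 27 probe sets of the 10 genes on the Tmem132a siRNA array and on the control siRNA array, joined by a line; open symbols and dashed lines mark the 5 probe sets under the signal filter, whose level (77.25) is dotted. The 7 Spred1 probe sets past the filter all have a higher signal with the Tmem132a siRNA, and the lines of Spred2 are mostly flat.

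Among the phosphatases, Dusp1 and Dusp5 had higher signals with the Tmem132a siRNA and the others differed less. Dusp1, a nuclear phosphatase for p38, JNK and ERK and itself an immediate early gene, had a signal of 3352.5 with the Tmem132a siRNA and 2271 with the control siRNA. Its log2 ratio of 0.56, or 1.48-fold, lay just under the 1.5-fold size. Of 4092 other probe sets with a mean signal within 2-fold of that of Dusp1, 5.47% had a ratio as high or higher. Dusp5, a nuclear phosphatase that acts on ERK, had a signal of 577.4 with the Tmem132a siRNA and 425.9 with the control siRNA, a log2 ratio of 0.44. For Dusp5, 15.1% of probe sets of like signal had a ratio as high, so its difference was a common one at that brightness. Each of the pair was read by 1 probe set, and no second measurement in these arrays bears on either value.

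Dusp4, Dusp6 and Dusp7 showed smaller or mixed differences. Dusp4, a nuclear phosphatase closely related to Dusp1, had a signal of 2966 with the Tmem132a siRNA and 3559.1 with the control siRNA (log2 ratio -0.26). Dusp6, the cytoplasmic ERK phosphatase whose mRNA is a widely used readout of ERK activity, had 1994.4 with the Tmem132a siRNA and 2127.8 with the control siRNA, a log2 ratio of -0.09. Dusp4 and Dusp6 thus lay on the other side of 0 from Dusp1 and Dusp5, although each difference was smaller than the SD between probe sets of a gene. Of probe sets of like signal, 22.1% had a ratio as low as that of Dusp4 and 37.9% one as low as that of Dusp6. Dusp7, a further cytoplasmic ERK phosphatase, had 3 probe sets, and its mean of 0.16 joined 2 that differed in direction. The probe set 1427416_x_at had signals of 246.2 with the Tmem132a siRNA and 172 with the control siRNA, and 1452097_a_at had 182.5 with the Tmem132a siRNA and 208.3 with the control siRNA. The dim probe set of Dusp7, 1460393_a_at, was under the filter with 92.7 with the Tmem132a siRNA and 48.9 with the control siRNA, although it was designed from the same sequence entry as 1452097_a_at. No direction can be read for Dusp7 from these probe sets, and the suffix x marks probe sets that may also bind other transcripts.

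The promoters of Dusp1 and Dusp5 are shown because these were the phosphatases with the highest ratios. The windows come from RefSeq on GRCm38.p6 and run from 250 bases before to 50 bases after the transcription start, 5′ to 3′ on the gene's strand. The Dusp1 window is chr17:26508423-26508722 on the minus strand and the Dusp5 window chr19:53528895-53529194 on the plus strand. Capitals mark cyclic AMP response elements (CRE, full letters TGACGTCA, or the half-site TGACG on either strand) and the CArG box, the binding motif of serum response factor.
Dusp1: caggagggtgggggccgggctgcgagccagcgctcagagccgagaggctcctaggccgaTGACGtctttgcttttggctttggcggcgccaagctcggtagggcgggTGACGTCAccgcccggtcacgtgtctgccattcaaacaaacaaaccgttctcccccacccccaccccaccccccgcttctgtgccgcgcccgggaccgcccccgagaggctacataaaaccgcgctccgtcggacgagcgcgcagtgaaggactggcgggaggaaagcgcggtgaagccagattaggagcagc
Dusp5: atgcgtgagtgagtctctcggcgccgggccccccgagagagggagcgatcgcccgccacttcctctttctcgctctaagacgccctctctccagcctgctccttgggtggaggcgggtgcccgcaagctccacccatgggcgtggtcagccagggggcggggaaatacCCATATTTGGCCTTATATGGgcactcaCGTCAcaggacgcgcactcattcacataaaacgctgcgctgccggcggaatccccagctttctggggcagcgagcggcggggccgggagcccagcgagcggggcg
The Dusp1 window held 1 full CRE, 143 bases before the start, and 1 further half-site 191 bases before it. The full CRE, which itself contains a half-site on each strand, occurred in 1.79% of 32851 promoter windows of the same length, and the half-site in 20.8%. The Dusp5 window held 2 adjoining CArG boxes, the first bases of which lie 82 and 72 bases before the start, and 1 CRE half-site, and 1.63% of all windows held a CArG box. Of the 10 genes 8 had a promoter in the table. Besides Dusp1 and Dusp5, a CRE half-site was found in that of Spred2, and neither a full CRE nor a CArG box was found in the windows of Spred1, Spred2, Spry1, Spry2, Dusp6 and Dusp7. These are matches of letters, not measured binding sites.

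The Sprouty genes differed little between the arrays. Spry1, a membrane-associated inhibitor of receptor signalling to RAS that limits RET signalling in the developing kidney, had a signal of 1062.6 with the Tmem132a siRNA and 982.9 with the control siRNA (log2 ratio 0.11). Spry2, which binds the adaptor GRB2 and the ubiquitin ligase CBL, had a signal of 1305.8 with the Tmem132a siRNA and 1612.6 with the control siRNA on 1436584_at, a log2 ratio of -0.30. That was the lowest ratio of the 10 genes, and 20.2% of probe sets of like signal had one as low. The second probe set of Spry2, 1421656_at, was under the filter and nearly level, with 73.5 with the Tmem132a siRNA and 71.6 with the control siRNA.

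Spry4, a Sprouty protein that also interferes with RAF activation, was dim on both arrays. Its probe set 1440867_at had 244.7 with the Tmem132a siRNA and 249.2 with the control siRNA, and 1445669_at had 109.3 with the Tmem132a siRNA and 126 with the control siRNA, which gave a gene ratio of -0.12. The other probe sets of Spry4 were under the filter. The probe set 1422021_at had 86.1 with the Tmem132a siRNA and 37 with the control siRNA, and 1422020_at had 5.5 with the Tmem132a siRNA and 5.1 with the control siRNA, although both were designed from 1 sequence entry. With no signal filter the Spry4 ratio was 0.25, on the other side of 0, so Spry4 has no settled direction.

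Spred1 had the highest ratio of the 10 genes. It encodes a membrane-anchored adaptor that binds the RAS GTPase-activating protein neurofibromin and brings it to the plasma membrane, where it inactivates RAS. Its gene log2 ratio was 0.77, or 1.70-fold, with an SD of 0.27 between its 7 probe sets, whose ratios spanned 0.41 to 1.13. The brightest, 1423160_at, had a signal of 2022 with the Tmem132a siRNA and 1266.7 with the control siRNA (log2 ratio 0.67), and 3.71% of 5667 probe sets of like signal had a ratio as high. The probe set 1460116_s_at had the largest ratio, 1.13, with 873.3 with the Tmem132a siRNA and 399.2 with the control siRNA, and 0.594% of probe sets of like signal reached it. All 7 were higher with the Tmem132a siRNA, and 5 of them at least 1.5-fold, while 1445228_at, under the filter, was lower.

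The other Spred1 probe sets past the filter had the same direction. On 1423161_s_at the signal was 1264.5 with the Tmem132a siRNA and 888.8 with the control siRNA. On 1452911_at, which had the lowest ratio of the 7, it was 491.2 with the Tmem132a siRNA and 370.4 with the control siRNA. On 1428777_at it was 451.8 with the Tmem132a siRNA and 269.4 with the control siRNA. The dimmer probe sets differed by more in ratio than these on average. On 1423162_s_at the signal was 298.6 with the Tmem132a siRNA and 171.6 with the control siRNA, and on 1443652_x_at it was 113.4 with the Tmem132a siRNA and 52.8 with the control siRNA.

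These 7 readings of Spred1 are not independent, because they came from the same pair of RNA samples and from 3 sequence entries. The 3 probe sets designed from BQ044290 had a mean log2 ratio of 0.66, the 2 from AK017680 one of 0.58 and the 2 from AI450584 one of 1.12, so each entry gave a higher signal with the Tmem132a siRNA. Of the 2 from AI450584, 1443652_x_at passed the filter only through its signal with the Tmem132a siRNA, and 1460116_s_at alone was at 1.13. The mean of these 3 values was 0.78. An exception was the dim probe set 1445228_at, from another entry, BB358998, with 5.4 with the Tmem132a siRNA and 46.3 with the control siRNA. It did not pass the filter, and one of its signals lay below the floor of 14.5 at which low signals were set. With no filter it entered the mean, and the Spred1 ratio was then 0.46, under the 1.5-fold size.

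Set beside all genes, the Spred1 ratio was in the upper part of the range and far from its end. Of 10678 genes, 4.57% had a ratio as high or higher, Spred1 included. Among the 340 genes that had 5 or more probe sets above the filter, whose means average out more of the spread between probe sets, 2.94% had a mean at least 1.5-fold higher, and 3 genes, again with Spred1, had a mean as high as that of Spred1. All probe sets of a gene were higher in 13.2% of these 340 genes.

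**Figure D2:**
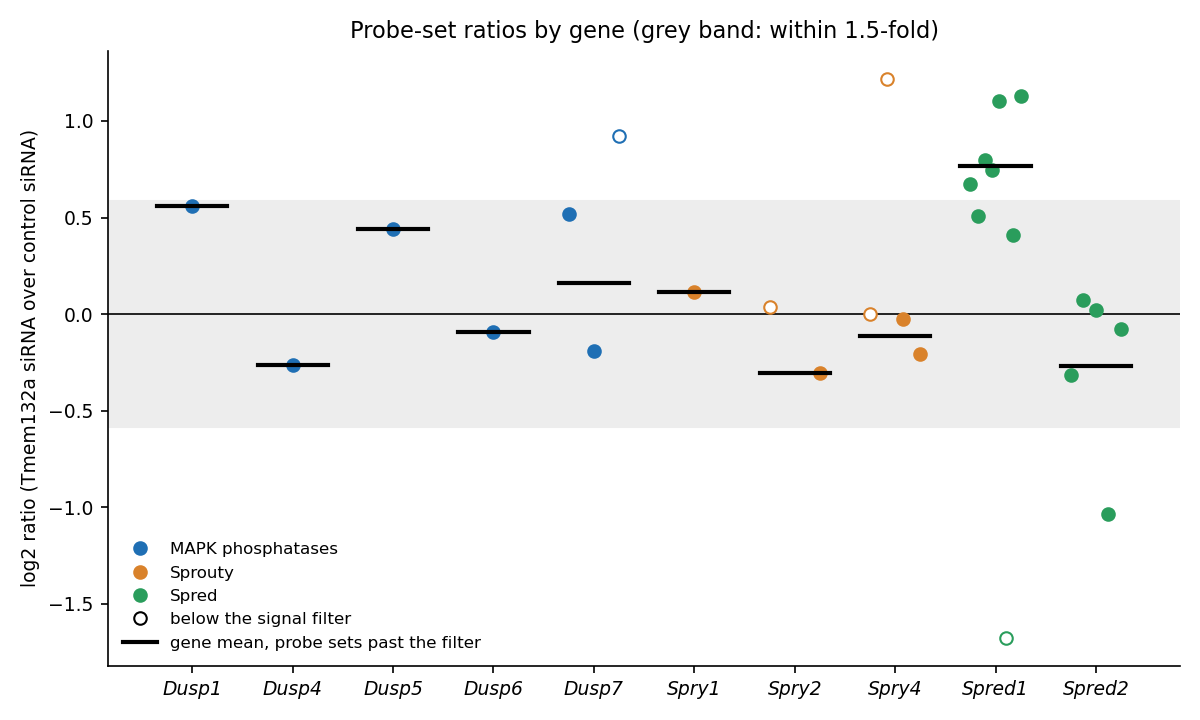
Log2 ratio (Tmem132a siRNA over control siRNA) of every probe set of the 10 genes, with the gene mean as a bar and the range within 1.5-fold shaded; open symbols are probe sets under the signal filter. The 7 filled Spred1 points lie between 0.41 and 1.13, while 4 of the 5 Spred2 points lie within 1.5-fold and 1 is at -1.03.

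Spred2, the paralogue of Spred1 with the same domain order and likewise an inhibitor of RAS activation, differed less on its brighter probe sets. Its brightest probe set, 1434403_at, had signals of 3121.5 with the Tmem132a siRNA and 2965.4 with the control siRNA (log2 ratio 0.07), and 1436892_at had 1062.2 with the Tmem132a siRNA and 1047.8 with the control siRNA (0.02). Both were nearly level between the arrays. The gene ratio of -0.27 came mostly from 1441415_at, with 168.3 with the Tmem132a siRNA and 344.4 with the control siRNA (-1.03), a difference that 3.06% of probe sets of like signal matched. Without it the mean of the other 4 probe sets was -0.08. The remaining pair was dim: 1441802_at had 155.2 with the Tmem132a siRNA and 164 with the control siRNA, and 1423001_at had 73.7 with the Tmem132a siRNA and 91.8 with the control siRNA. By the brightest probe set alone Spred2 was at 0.07, so it has no settled direction. The gene ratios of Spred1 and Spred2 differed by 1.03, by 0.60 when each was read by its brightest probe set, and by 0.72 with the filter at the 75th percentile, where Spred2 was at 0.05. No test of this difference was possible with 1 array per group. Spred3, the third gene of the family, had a log2 ratio of 0.56 on 1 probe set with 228.4 with the Tmem132a siRNA and 154.6 with the control siRNA.

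The promoter windows of the Spred pair are shown because the gene ratios of the paralogues differed. The windows are chr2:117120821-117121120 for Spred1 and chr11:19924192-19924491 for Spred2, both on the plus strand of GRCm38.p6 and from RefSeq, with capitals as above.
Spred1: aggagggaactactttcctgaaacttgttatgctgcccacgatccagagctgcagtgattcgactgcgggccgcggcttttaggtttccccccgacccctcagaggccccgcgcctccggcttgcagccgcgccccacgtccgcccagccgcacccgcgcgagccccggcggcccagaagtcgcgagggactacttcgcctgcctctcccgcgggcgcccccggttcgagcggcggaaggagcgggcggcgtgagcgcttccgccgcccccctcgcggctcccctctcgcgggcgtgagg
Spred2: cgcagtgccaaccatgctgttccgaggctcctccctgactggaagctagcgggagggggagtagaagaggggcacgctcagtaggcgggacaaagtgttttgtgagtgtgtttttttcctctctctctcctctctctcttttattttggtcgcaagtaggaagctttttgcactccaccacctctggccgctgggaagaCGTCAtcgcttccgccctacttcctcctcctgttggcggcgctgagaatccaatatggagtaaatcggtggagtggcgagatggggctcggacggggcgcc
The Spred2 window held 1 CRE half-site, 51 bases before the start, and the Spred1 window held none of the motifs searched, which besides CRE and CArG were the AP-1 site (TGANTCA, in 7.81% of all windows) and the ETS core (CCGGAA, in 14.9%). The ETS core was found in the window of Spry2, among the 8 searched.

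**Figure D3:**
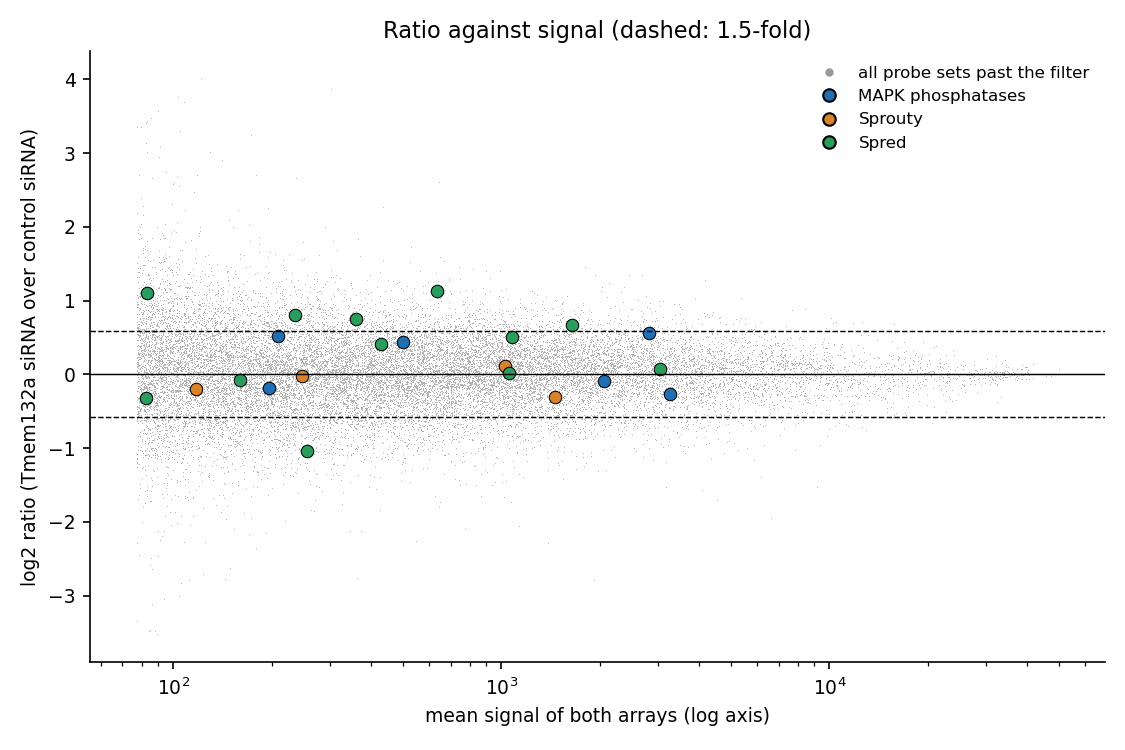
Log2 ratio (Tmem132a siRNA over control siRNA) against the mean signal of both arrays (log axis) for all 22519 probe sets past the filter, in grey, with the 22 probe sets of the 10 genes in colour and dashed lines at 1.5-fold. The cloud narrows to the right. Dusp1 and the brightest Spred1 probe set lie in its upper part, with 5.47% and 3.71% of probe sets of like signal as high. Dusp4, Dusp6 and the brightest Spred2 probe sets lie nearer its middle.

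The size of a ratio has to be read against brightness. Of the probe sets with a mean signal of 2000 or more, 3.36% were at least 1.5-fold higher with the Tmem132a siRNA, against 19.2% of those between 77.25 and 150. Of the 22 probe sets of the 10 genes, 5 were higher by 1.5-fold or more, all of Spred1, and 1 lower, of Spred2, where 9.99% of all 22519 probe sets were higher and 11% lower. Among the 5, 1443652_x_at passed the filter only through its signal with the Tmem132a siRNA. The filter left out 1445228_at of Spred1, which was lower. Without Spred1 the median of the other 9 genes was -0.09.

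Between the receptors and ERK, genes of the cascade differed little, while receptor genes differed in both directions. Of 10 measured genes of RAS, RAF, MEK and their scaffolds, 0 differed 1.5-fold and the median log2 ratio was 0.06, with the RAS-related GTPase gene Mras at 0.46 and the scaffold gene Ksr1 at -0.45, or at -0.23 by its brightest probe set. Of 9 measured adaptor and exchange factor genes, 0 differed 1.5-fold and the median was 0.26, with the docking protein gene Gab2 at 0.42 and the adaptor gene Shc1 at -0.43. The value of Gab2 was 0.65 by its brightest probe set and 0.19 without its a-type probe set. Of 11 measured receptor tyrosine kinase genes, 3 were higher by 1.5-fold or more and 3 lower by as much, and the median was 0.08. Across all genes 8.83% were higher and 9.1% lower by that size. Erbb3, a receptor for neuregulins, had a log2 ratio of 1.37, with 332.6 with the Tmem132a siRNA and 128.9 with the control siRNA, and the dim neurotrophin receptor gene Ntrk2 one of 0.93. Ret, the receptor of the GDNF family of ligands, had a ratio of -0.66, and its brightest probe set gave 2950.8 with the Tmem132a siRNA and 5381.8 with the control siRNA. With no filter the ratio of Erbb3 was 0.68 and that of Ntrk2 was 0.02. Ntrk2 passed the filter only through its signal with the Tmem132a siRNA, 117.5 against 61.7 with the control siRNA. The same held for Fgfr4, another of the 3 higher genes, at 0.74, with 117.2 against 70.1. Among the 3 lower genes, Ntrk3 was at -0.69 with probe sets at -1.43 and 0.05, and its brightest was the one at 0.05. Of 4 measured kinase genes downstream of ERK, Mknk1, whose kinase phosphorylates the cap-binding factor eIF4E, was at 0.68. Its relative Mknk2 had no settled direction, with probe sets at -0.31 and 0.18, and the median of the 4 genes was -0.04.

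A chosen list of other phosphatases of the dual-specificity family and related tyrosine phosphatases lay mostly above 0. The filter left 11 of 16 listed genes with a probe set, and 10 of the 11 had a ratio above 0, where 5535 of all 10678 genes did. Their median was 0.41, with 3 at least 1.5-fold higher and 0 lower, where 8.83% of all genes were higher and 9.1% lower. Dusp16, a phosphatase of JNK and p38, was at 0.74, with 2350.2 with the Tmem132a siRNA and 1407.5 with the control siRNA. Dusp26, an atypical phosphatase of neural tissue, was at 1.91 but dim, with 145.5 with the Tmem132a siRNA and 38.8 with the control siRNA, and its ratio was 0.93 when 79.2 was added to all signals. Dusp26 passed the filter only through its signal with the Tmem132a siRNA. Dusp8, also a phosphatase of JNK and p38, was at 0.59 over 2 probe sets, and at 0.33, under the 1.5-fold size, by its brightest. Dusp2, an immediate early phosphatase, was the gene below 0, at -0.36. Without probe sets of the x, s and a kind the median was 0.25 over 7 genes.

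Other inhibitors of RAS and ERK did not share a direction. Of 15 measured genes, 6 had a ratio above 0 and 9 below, with a median of -0.11. Il17rd, which encodes the receptor-like inhibitor SEF, was at -1.27, with 148.3 with the Tmem132a siRNA and 358.4 with the control siRNA on 1 probe set. Rasa2, a RAS GTPase-activating protein gene, was at 0.61 over 2 probe sets, with 1098.4 with the Tmem132a siRNA and 679 with the control siRNA on the brighter.

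Transcripts known to be induced by ERK were mostly a little above 0. Of 13 measured genes, 11 had a ratio above 0, where 5535 of all 10678 genes did, and the median was 0.25. By 1.5-fold or more 1 was higher and 1 lower, near the shares over all genes of 8.83% and 9.1%. Among the 11, Egr2, Etv5 and Mcl1 had probe sets on both sides of 0. Egr3, at 0.53, had probe sets at 0.98 and 0.07. The one at 0.98 passed the filter only through its signal with the Tmem132a siRNA, 116.6 against 59 with the control siRNA. Egr1, an immediate early zinc finger gene, was at 1.27, with 5918.4 with the Tmem132a siRNA and 2449.7 with the control siRNA, and the immediate early gene Fos at 0.35. Etv4, an ETS factor gene that follows FGF and ERK signalling together with Dusp6 and the Sprouty genes, was at -0.89 over 2 probe sets, with 514.2 with the Tmem132a siRNA and 910.5 with the control siRNA on the brighter. Its relative Etv5 was at 0.06 and the cyclin gene Ccnd1 at -0.12.

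**Figure D4:**
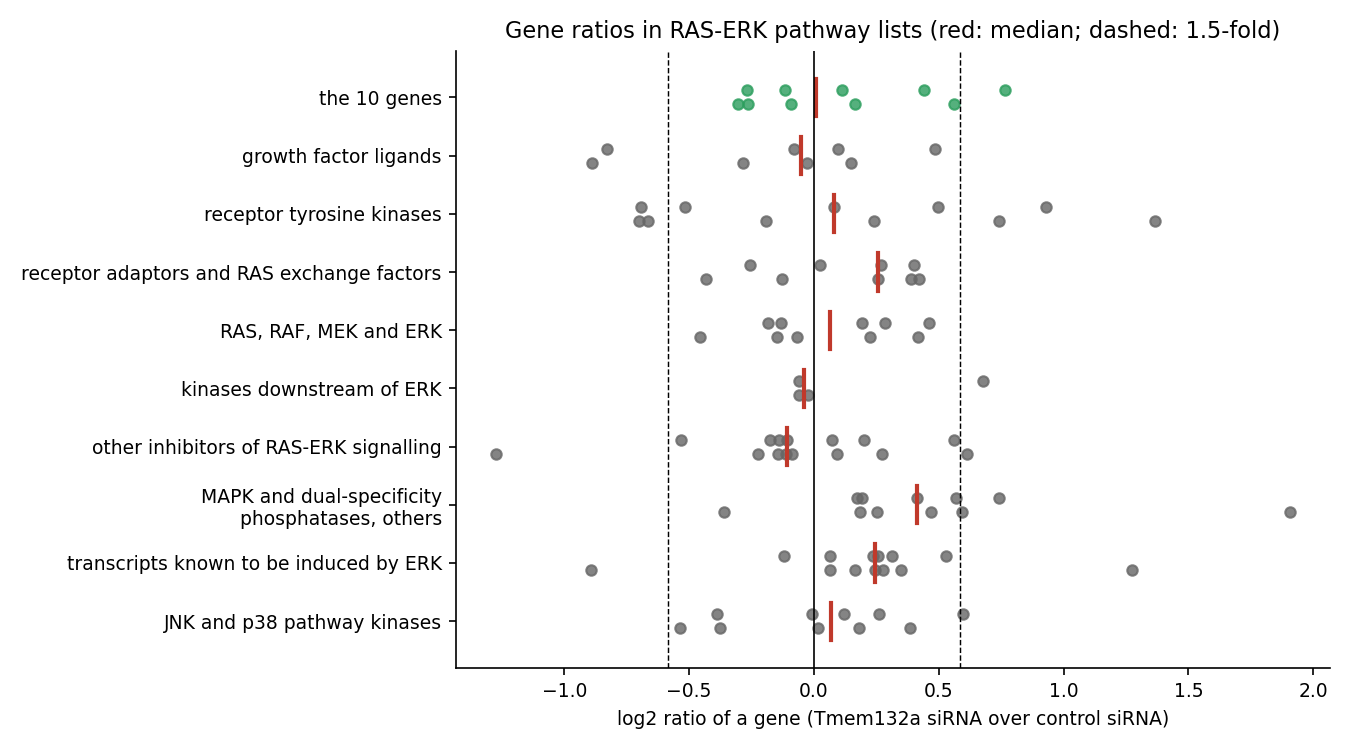
Log2 ratio (Tmem132a siRNA over control siRNA) of each measured gene of the 10 members and of 9 lists of the ERK pathway and its neighbours, 1 point a gene, with the median of each list in red and dashed lines at 1.5-fold. The 10 members spread on both sides of 0 with a median of 0.01, and the list of other MAPK and dual-specificity phosphatases has the highest median, 0.41.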

How the data were processed

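Neuro2a RNA of 2 groups was measured on 1 array each. The authors deposited a signal intensity for every probe set, linear in scale and computed by MAS5, as stated in the series text and per the submitters' processing notes. The MAS5 version and any scaling target are not named there. Detection calls were not used here.

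The values were processed with numpy 2.4.6, pandas 2.3.3 and statsmodels 0.14.6 under Python 3.11.15, and drawn with matplotlib 3.10.9. Both arrays were scaled to the same 2% trimmed mean, 64 control probe sets were left out, and signals under the 20th percentile (14.5) were set to it. Of 45037 probe sets, 34945 had 1 symbol, 932 several and 9160 were not listed. The filter was a mean signal at or above the median (77.25). No test and no likeness of pattern between genes could be computed from 1 array per group. The ratio procedure was tested on simulated data. Promoters were searched on both strands.

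The members and lists were chosen with earlier results of these data known. Named genes are the members, Tmem132a, and of each list up to 4 genes past 2-fold or otherwise the 2 largest ratios. Further list genes were chosen after their values were seen.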

Additional observations from a re-analysis of the deposited data

How the results depend on the processing

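All 99 values of the 10 genes under the alternatives moved by less than 0.39, the SD between probe sets of a gene. Of the settings, 10 were listed at the outset and 2 chosen after seeing the data, namely 1 value per sequence entry for Spred1 and Spred2 without 1441415_at. Spred1 ranged from 0.46 to 0.78 and was at least 1.5-fold higher in 10 of 11 settings. It lay just over that size without x, s and a probe sets (0.61) and with 79.2 added to all signals (0.60). Leaving out the rescaling or the floor could not move it, since the trimmed means were already alike and none of its probe sets past the filter was at the floor. Dusp1 ranged from 0.55 to 0.56 and reached 1.5-fold in 0 of 10. It has 1 probe set, so settings that choose among probe sets could not move it. With no filter the median of the 10 genes was 0.18 and 0 of them differed 1.5-fold. In that setting 2193 of 18193 genes differed 2-fold, against 485 of 10678 in the main setting. Its median was -0.093 for adaptors and 0.26 for kinases downstream of ERK, and Fgf1 (0.25) and Mapk10 (-0.073) changed sign. With the filter at the 75th percentile 134 of 6850 genes differed 2-fold. The medians at that filter were -0.32 over 2 ligands (-0.053 over 8 in the main setting), -0.55 over 4 receptors (0.081 over 11) and 0.29 over 8 of the other phosphatases. When 79.2 was added to all signals instead of a floor, 128 of 10678 genes differed 2-fold and the receptor median was -0.056. By brightest probe sets the medians were -0.071 for receptors, 0.12 for adaptors, -0.28 for kinases downstream of ERK and 0.19 for JNK and p38 kinases. Without x, s and a probe sets they were 0.068 for adaptors, -0.10 for the RAS, RAF, MEK and ERK list and 0.25 for the other phosphatases. Dusp7 and Spry4 had no value with the filter at the 75th percentile, nor Dusp7 when probe sets of the x, s and a kind were left out. The cause of these shifts was not tested. No paired analysis was possible because each group has 1 array.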

Other observations

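Of 25 ligand genes of receptor tyrosine kinases with a probe set, 8 passed the signal filter, and their median log2 ratio was -0.053. Ptn, which encodes the neurite-promoting factor pleiotrophin and can act on ALK, averaged a log2 ratio of -0.89 across 3 probe sets, of which the brightest gave 1284 with the Tmem132a siRNA and 1890.4 with the control siRNA, a ratio of -0.56 on that probe set alone. Fgf1 was at -0.83 on 1 dim probe set, with 59.7 with the Tmem132a siRNA and 106 with the control siRNA, and at 0.25 with no filter. Hbegf, an EGF-family ligand that ERK can induce, was at 0.48 over 2 probe sets.

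Of 10 measured kinase genes of the JNK and p38 pathways, which Dusp1 and Dusp16 also counteract, 6 had a ratio above 0 and the median was 0.07. Mapk10, the neural JNK gene, was at 0.60, with 4432.7 with the Tmem132a siRNA and 3111.4 with the control siRNA on its brightest probe set, and at -0.073 with no filter. The p38 genes Mapk12 and Mapk14 were at -0.54 and -0.38, Mapk14 over 5 probe sets.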
